A study of Mus musculus with 6 samples.

Results

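The stem cell transcription factor core is described here as 10 genes taken by name from the count tables: Runx1, Gata2, Tal1, Lyl1, Lmo2, Erg, Fli1, Gfi1, Gfi1b and Etv6. All 10 were found among the 38926 genes counted, and all 10 were among the 13646 genes that passed the filter on low counts. The samples were hematopoietic stem cells (HSCs) sorted by surface markers from mouse fetal liver at day E14.5 of gestation. The 3 control samples had the genotype Vav-Cre; Dpy30F/+, that is, a Cre recombinase driven by the blood-cell promoter Vav with 1 floxed and 1 intact Dpy30 allele. The 3 knockout samples had the genotype Vav-Cre; Dpy30F/-, with 1 floxed and 1 null allele. Both groups carried Vav-Cre and a floxed allele, so the controls are heterozygous where Cre acted. Each of 3 litters gave 1 control and 1 knockout, and sample numbers are litter numbers. The labels do not say whether a sample is 1 embryo or a pool, so p-values measure only the spread between these samples.

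These factors hold the identity of blood stem cells by binding together at shared enhancers, many of them enhancers of the factors' own genes. Runx1, Gata2, Tal1, Lyl1, Lmo2, Erg and Fli1 form the set usually called the heptad: Lmo2 binds no DNA itself and bridges Tal1 or Lyl1 to GATA factors, while Erg and Fli1 are paralogs of the ETS family. Gfi1, Gfi1b and Etv6 are repressors needed by stem cells and early progenitors. Dpy30 belongs to every SET1/MLL complex and helps these enzymes methylate histone H3 at its lysine 4, a mark of active promoters and enhancers.

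In the knockouts, Runx1, Gata2 and Fli1 lay above the control of the same litter in all 3 litters (12.3% of all genes tested). Gfi1b lay below it in all 3 (15.9% of all genes tested). Erg, Lmo2 and Lyl1 were near the control range in knockouts 1 and 2 and lowest of all samples in knockout 3. Etv6 was also lowest in knockout 3, but above all controls in knockouts 1 and 2. Knockout 2 had the highest Runx1, Gata2, Lmo2, Erg and Fli1 of the 6 samples (18.6% of all genes tested were highest there). No member passed the test (0 of 10 at an edgeR adjusted p under 0.05, where 0% of all 13646 genes tested passed), so each direction given here is that of the samples and not a called change. The same test had 0 of 10 members at an unadjusted p under 0.05, against 6.51% of all genes tested. DESeq2, run as another test, called 253 genes (1.7% of the 14867 with an adjusted p) and also 0 of 10 members.

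Gene counts totalled 35559444 to 43394700 in controls and 31897737 to 36679347 in knockouts. The 2 mitochondrial ribosomal RNAs took 49.7% to 61.7% of them in controls and 45.2% to 50.5% in knockouts. Genes detected with at least 1 count numbered 16149 to 17241 in controls and 16857, 14674 and 13972 in knockouts 1 to 3. Member counts ran from 123 to 8978. Levels are given as CPM, counts per 1000000 after scaling by trimmed mean of M values (TMM). Dpy30 itself was at 24.6, 24.2 and 31.6 CPM in controls 1 to 3 and at 7.93, 5.95 and 13.7 CPM in knockouts 1 to 3, with knockout 3 the highest of the knockouts. Its log2 fold change was -1.55 (SE 0.46; adjusted p = 0.672, edgeR), so the main test did not call the deleted gene either.

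Transcripts of other cell types were present beside those of HSCs, and their sums differed between libraries. The 12 HSC markers listed for this work were all found, and their summed level was 976 to 1025 CPM in controls and 1291, 1269 and 540 CPM in knockouts 1 to 3. The 12 endothelial markers summed to 1346 to 2082 CPM in controls and to 1912, 269 and 1875 CPM in knockouts 1 to 3, so knockout 2 stands apart. Lyve1 and Stab2, receptors of liver sinusoidal endothelium, were at 444, 656 and 411 CPM and at 382, 479 and 317 CPM in controls 1 to 3, and at 28.9 and 24.6 CPM in knockout 2. In knockout 3, the 11 macrophage and monocyte markers in the files summed to 1509.7 CPM (controls 290 to 596), the 12 granulocyte markers to 407 CPM (controls 70.9 to 135) and the 12 erythroid markers to 3129.6 CPM (controls 1645 to 2782). In knockouts 1 and 2 the macrophage and monocyte sum was 790 and 326 CPM, and the granulocyte sum 77.6 and 175 CPM. Of the 11 macrophage and monocyte markers, 5 had all knockouts above all controls (6.39% of all genes tested). Mast cell and basophil markers summed to 5.01 to 17.1 CPM in controls and 25.9 to 45.7 CPM in knockouts, with 5 of the 12 at 0 in every sample, Cma1 and Fcer1a among them. Most of that sum came from Il1rl1 and Cpa3 in every sample. Lymphoid markers summed to 1.69 to 10.2 CPM in controls and 1.94 to 5.02 CPM in knockouts (Cd3e at 0 throughout), and hepatocyte markers to 5.66 to 25.7 CPM and 6.24 to 20.5 CPM. Several core factors, Erg, Fli1, Tal1, Lmo2, Lyl1 and Gata2 among them, are also expressed by endothelial cells, and Gata2 by mast cells. In these bulk samples fewer cells of a type and less RNA per cell cannot be told apart.

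**Figure D1:**
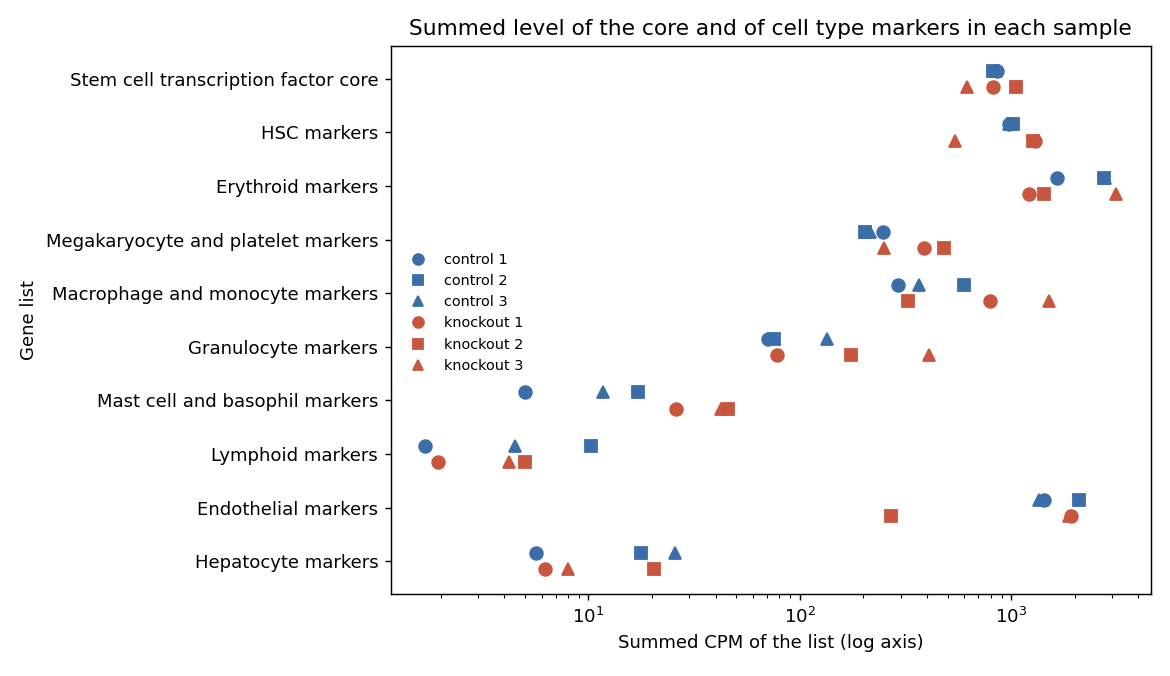
Summed CPM (log axis) of the 10 core factors and of 9 lists of cell type markers in each sample, with circles, squares and triangles for litters 1 to 3 and blue and red for control and knockout. Knockout 2 has the lowest endothelial sum (269 CPM) and knockout 3 the lowest HSC marker sum (540 CPM) of the 6 samples.

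Promoter sequences were available in the RefSeq table (build GRCm38.p6) for 8 of the 10 members, all but Lmo2 and Fli1. The 250 bases before the first listed start are shown for the member whose groups did not overlap (Gata2), the member below its control in every litter (Gfi1b) and a pair that was low together in knockout 3 (Lyl1 and Erg). Counts per gene do not show which start was used. Capitals mark matches on either strand to 4 short motifs: GATAA for GATA factors, CAGNTG (the E-box) for Tal1 or Lyl1 with E proteins, GGAAG for ETS factors and TGTGGT for Runx1. The matches shown do not overlap each other.
Gata2, chr6:88193641-88193890, plus strand: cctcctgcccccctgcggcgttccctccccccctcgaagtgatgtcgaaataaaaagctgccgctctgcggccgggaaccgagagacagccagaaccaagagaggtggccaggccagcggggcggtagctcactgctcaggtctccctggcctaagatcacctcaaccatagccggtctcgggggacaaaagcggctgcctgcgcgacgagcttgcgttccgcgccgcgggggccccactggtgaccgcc
Gfi1b, chr2:28621983-28622232, minus strand: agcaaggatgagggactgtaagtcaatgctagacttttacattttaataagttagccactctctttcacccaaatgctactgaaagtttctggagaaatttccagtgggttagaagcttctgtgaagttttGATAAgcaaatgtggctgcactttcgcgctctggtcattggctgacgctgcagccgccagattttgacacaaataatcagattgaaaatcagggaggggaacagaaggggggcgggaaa
Lyl1, chr8:84701207-84701456, plus strand: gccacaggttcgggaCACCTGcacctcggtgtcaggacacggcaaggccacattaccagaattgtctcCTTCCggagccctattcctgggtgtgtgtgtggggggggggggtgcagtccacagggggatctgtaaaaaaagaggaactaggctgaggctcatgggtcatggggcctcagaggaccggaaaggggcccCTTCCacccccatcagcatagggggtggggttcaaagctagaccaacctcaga
Erg, chr16:95586594-95586843, minus strand: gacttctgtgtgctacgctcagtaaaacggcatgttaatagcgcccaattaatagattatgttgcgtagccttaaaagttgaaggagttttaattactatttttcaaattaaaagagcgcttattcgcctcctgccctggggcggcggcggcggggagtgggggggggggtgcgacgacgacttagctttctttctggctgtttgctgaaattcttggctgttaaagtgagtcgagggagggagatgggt
The Gfi1b window held 1 GATA match and the Lyl1 window held 1 E-box and 2 ETS matches, while the Gata2 and Erg windows held none of the 4. Among 32851 RefSeq windows of the same length, 22.6% held the GATA motif, 44.8% the E-box, 64.1% the ETS motif and 14.0% the Runx1 motif. CpG dinucleotides, which mark the CpG islands where SET1/MLL complexes often sit, numbered 22 in the Gata2 window and 14 in the Erg window. There were 5 in the Gfi1b window and 5 in the Lyl1 window, against a median of 6 over all windows (quartiles 2 and 16).

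The level of a factor in the stem cell sort was compared between genes per kilobase of merged exon (GENCODE M21 basic set). This unit runs low for genes with many alternative exons, since all of them enter the length. In controls the order was Lmo2, at 79.8 ± 7.54 CPM per kilobase, then Tal1 at 41.2 ± 9.83, Erg at 40.2 ± 6.36, Gfi1b at 33.1 ± 10.8, Fli1 at 22.8 ± 4.36 and Lyl1 at 17.2 ± 6.46 (SD, n = 3). Etv6 followed at 16.4 ± 1.45, Runx1 at 9.99 ± 0.582, Gata2 at 8.42 ± 0.253 and Gfi1 at 2.75 ± 1.21 CPM per kilobase (SD, n = 3). Each gene from Tal1 to Lyl1 overlapped the next in its 3 control values, whereas Lmo2 lay above Tal1, Etv6 above Runx1, Runx1 above Gata2 and Gata2 above Gfi1 without overlap. In the knockouts Lmo2 was still first by its mean (60.3 ± 37.6 CPM per kilobase) and Gfi1 last (4.39 ± 2.40), and every neighbouring pair but Runx1 and Gfi1 overlapped.

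**Figure D2:**
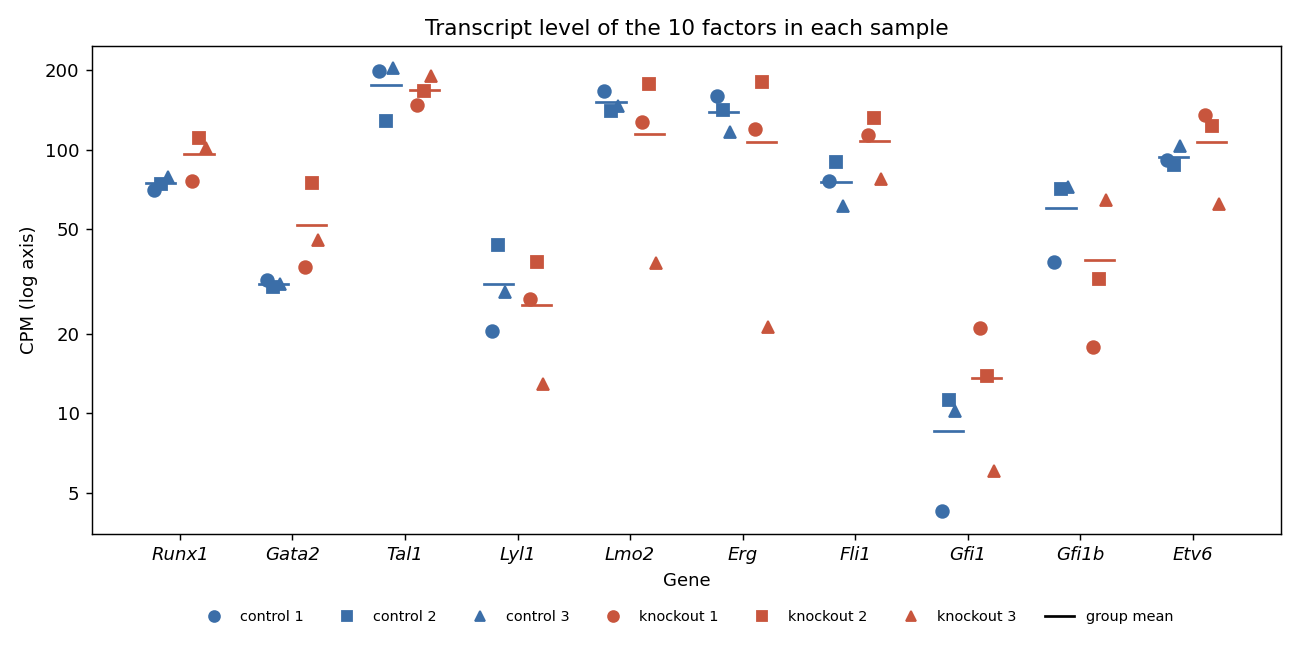
CPM (log axis) of each of the 10 factors in every sample, with circles, squares and triangles for litters 1 to 3, blue for control and red for knockout, and a bar at each group mean. The 3 knockout points of Gata2 lie above its 3 control points, and knockout 3 lies far below the other samples for Erg (21.2 CPM) and Lmo2 (37.3 CPM).

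Runx1 (chromosome 16, 92601466 to 92826149, minus strand), which is needed for the first HSCs to arise from endothelium, was at 70.3, 74.0 and 79.0 CPM in controls 1 to 3 and at 76.1, 110.2 and 101.7 CPM in knockouts 1 to 3. Knockouts 2 and 3 were above all controls, and knockout 1 fell within the control range. The log2 fold change, knockout over control, was 0.37 (SE 0.23; adjusted p = 0.844, edgeR), and the difference in log2 CPM within litters 1 to 3 was 0.11, 0.57 and 0.36. With scaling by library size alone the knockouts lay above all controls, the highest of which was at 80.3 CPM. A short opposite-strand gene, Gm26626, shares 0.881% of the annotated Runx1 exon bases, and since the strand setting of the counting is not given in the sources used here its reads cannot be told from those of Runx1 there.

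Gata2 (chromosome 6, 88193891 to 88207032, plus strand) encodes the GATA factor of stem and early progenitor cells, including those of the megakaryocyte and mast cell lines. It was at 32.0, 30.1 and 31.0 CPM in controls 1 to 3 and at 35.9, 74.7 and 45.3 CPM in knockouts 1 to 3. The control values lay within 1.06-fold of each other with TMM scaling. Every knockout was above every control, which held under TMM, DESeq2-style and library-size scaling. Gata2 was the 1 member of 10 with all knockouts above all controls, which held for 6.39% of all genes tested. No member had all knockouts below all controls, which held for 7.74%. Controls averaged 31.0 ± 0.932 CPM and knockouts 52.0 ± 20.2 CPM (SD, n = 3 per genotype), a log2 fold change of 0.74 (SE 0.34; adjusted p = 0.775, edgeR; DESeq2 adjusted p = 0.388). Knockout 2 carried much of this: without it the log2 fold change was 0.39 (adjusted p = 0.726, edgeR). The mast cell and basophil sum was also higher in every knockout than in any control, with Cpa3 (0.0691, 3.72 and 0.249 CPM in controls, 11.7, 4.08 and 17.9 CPM in knockouts 1 to 3) and Il1rl1 (4.94, 5.70 and 8.64 CPM, and 13.1, 35.9 and 23.4 CPM). Cpa3 and Il1rl1 made up most of that sum in every sample. The rest of the list was lower in knockouts 2 and 3 than in the controls of the same litters, and higher in knockout 1. Of the 12 markers, 4 could be tested. The granule protease genes Cma1, Tpsb2, Tpsab1 and Mcpt4 were at 0 in all 6 samples. The part of such cells in the Gata2 level was not tested.

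Tal1 and Lyl1 encode related basic helix-loop-helix factors that can replace each other in part. Tal1 (chromosome 4, 115056426 to 115071755, plus strand) was at 198, 128 and 204 CPM in controls 1 to 3 and at 147, 167 and 189.7 CPM in knockouts 1 to 3. The knockouts all lay within the control range, with a log2 fold change of -0.071 (SE 0.25; adjusted p = 0.980, edgeR) that turned to 0.14 with scaling by library size alone. Lyl1 (chromosome 8, 84701457 to 84704715, plus strand) was at 20.5, 43.4 and 28.8 CPM in controls and at 27.2, 37.4 and 12.9 CPM in knockouts 1 to 3. Knockouts 1 and 2 were inside the control range and knockout 3 was below it, at 44.8% of control 3. The log2 fold change was -0.26 (SE 0.48; adjusted p = 0.962, edgeR) and was 0.074 without knockout 3 and 0.077 without control 2.

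Lmo2 (chromosome 2, 103957986 to 103981878, plus strand), the bridging LIM protein, was at 167, 139.8 and 146 CPM in controls 1 to 3 and at 127, 178 and 37.3 CPM in knockouts 1 to 3. Knockout 1 was slightly below the controls, knockout 2 slightly above them, and knockout 3 at 25.5% of control 3. The log2 fold change was -0.40 (SE 0.48; adjusted p = 0.926, edgeR) and 0.025 without knockout 3. With litter as a block it was -0.66, and with scaling by library size alone -0.18, again without passing. Knockouts thus differed among themselves by 4.76-fold in Lmo2, and controls by 1.20-fold.

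Erg and Fli1, the ETS pair, had different patterns over the samples. Erg (chromosome 16, 95359169 to 95586593, minus strand), which keeps HSCs from differentiating, was at 160.1, 142 and 116 CPM in controls 1 to 3 and at 119.6, 180.2 and 21.2 CPM in knockouts 1 to 3. Knockout 1 was within the control range, knockout 2 above it, and knockout 3 at 18.2% of control 3, an 8.52-fold spread among knockouts against 1.38-fold among controls. Its log2 fold change was -0.38 (SE 0.62; adjusted p = 0.952, edgeR) and 0.12 without knockout 3. With litter as a block it was -0.81, and with scaling by library size alone -0.15, without passing the test in either fit. Fli1 (chromosome 9, 32422204 to 32542861, minus strand), also a factor of megakaryocytes and endothelium, was at 76.0, 89.9 and 61.0 CPM in controls and at 113.8, 132 and 77.1 CPM in knockouts 1 to 3. Knockouts 1 and 2 were above all controls and knockout 3 was within their range, with a log2 fold change of 0.51 (SE 0.28; adjusted p = 0.799, edgeR). The 12 megakaryocyte and platelet markers summed to 248, 204 and 216 CPM in controls and to 389, 479 and 249.8 CPM in knockouts 1 to 3, also higher in each litter, and their part in the Fli1 level was not tested.

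Ratios of counts within a sample do not depend on the scaling, and 4 pairs of related genes were compared in this way after the values had been seen. The permutation tests shuffled the samples without regard to litter. Erg counts over Fli1 counts came to 2.11, 1.58 and 1.91 in controls 1 to 3 and to 1.05, 1.36 and 0.274 in knockouts 1 to 3, lower in 3 of 3 litters and without overlap. The difference of the mean log2 ratio was -1.34 (exact permutation p = 0.1, two-sided, the smallest possible with 3 against 3; Benjamini-Hochberg adjusted p = 0.4 over 4 pairs), and -0.63 without knockout 3. Gata2 over Gata1, the GATA factor that follows it in erythroid and megakaryocyte maturation, was 2.08, 0.969 and 0.896 in controls and 3.29, 3.57 and 1.85 in knockouts 1 to 3. That ratio was higher in 3 of 3 litters, with groups that overlapped (difference 1.20 on the log2 scale; exact permutation p = 0.2, adjusted p = 0.4). Neither Tal1 over Lyl1 (difference 0.27; exact permutation p = 0.8, adjusted p = 0.8) nor Gfi1b over Gfi1 (difference -1.41; exact permutation p = 0.4, adjusted p = 0.533) separated the genotypes. The Gfi1b over Gfi1 difference was -2.38 without knockout 3 (exact permutation p = 0.1, the smallest possible with 3 against 2) and -0.56 without knockout 1 (exact permutation p = 0.7). Knockout 3 was the only knockout with this ratio above all controls, and the others were below them all. Leaving it out therefore fixed the p of 0.1, which is not adjusted and carries no weight as a test. The Tal1 over Lyl1 difference changed sign without control 2 or knockout 3 (-0.22 and -0.25).

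The repressors took different courses. Gfi1 (chromosome 5, 107716657 to 107726036, minus strand), which restrains HSC division and directs granulocyte fate, was the least abundant member, at 4.25, 11.2 and 10.2 CPM in controls 1 to 3 and 20.98, 13.9 and 6.05 CPM in knockouts 1 to 3. Its groups overlapped, with a log2 fold change of 0.67 (SE 0.66; adjusted p = 0.904, edgeR) and a difference in log2 CPM of 2.29, 0.31 and -0.75 within litters 1 to 3. The log2 fold change was 0.23 without knockout 1, 0.35 without control 1 and 1.04 without knockout 3. The opposite-strand gene A430072P03Rik shares 3.17% of the Gfi1 exon bases and had 0 to 43 counts. Gfi1b (chromosome 2, 28609450 to 28621982, minus strand), its paralog with a main role in erythroid and megakaryocyte cells, was at 37.6, 70.8 and 72.4 CPM in controls and 17.8, 32.4 and 64.5 CPM in knockouts 1 to 3. It was lower than its control in each litter, with differences in log2 CPM, knockout minus control, of -1.08, -1.13 and -0.17, although knockout 3 exceeded control 1. The log2 fold change was -0.66 (SE 0.49; adjusted p = 0.868, edgeR), -1.25 without knockout 3 (adjusted p = 0.607) and -0.32 without knockout 1. The erythroid markers summed to 1645, 2743 and 2782 CPM in controls 1 to 3 and to 1219.7, 1428 and 3129.6 CPM in knockouts 1 to 3. Of these 12 markers, 6 were lower in the knockout in all litters (15.9% of all genes tested). Their part in the Gfi1b level was not tested. Etv6 (chromosome 6, 134035700 to 134270158, plus strand), an ETS repressor that adult HSCs require, was at 91.2, 87.1 and 103 CPM in controls. In knockouts 1 to 3 it was at 134.8, 122 and 62.0 CPM, so that knockouts 1 and 2 lay above all controls and knockout 3 below them all (log2 fold change 0.18, SE 0.31; adjusted p = 0.956, edgeR). The opposite-strand gene Gm17089 shares 2.26% of the Etv6 exon bases and had 1 to 237 counts.

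Litter by litter, 3 of the 10 members were higher in the knockout in all litters (Runx1, Gata2 and Fli1), where 12.3% of all genes tested were. Gfi1b alone was lower in all litters, where 15.9% of all genes tested were. These 4 kept their direction in each litter under TMM, DESeq2-style and library-size scaling. In litter 1, Tal1, Lmo2 and Erg were lower in the knockout by 0.43, 0.39 and 0.42 on the log2 scale and were higher with scaling by library size alone, which moved the median log2 fold change of all genes from 0.015 to 0.23. Over the 10 members the median log2 fold change was 0.056, beside 0.015 over all genes tested, and 5 of 10 were above 0 (50.8% of all genes tested). Without knockout 3 the median was 0.23 and 8 of 10 were above 0.

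**Figure D3:**
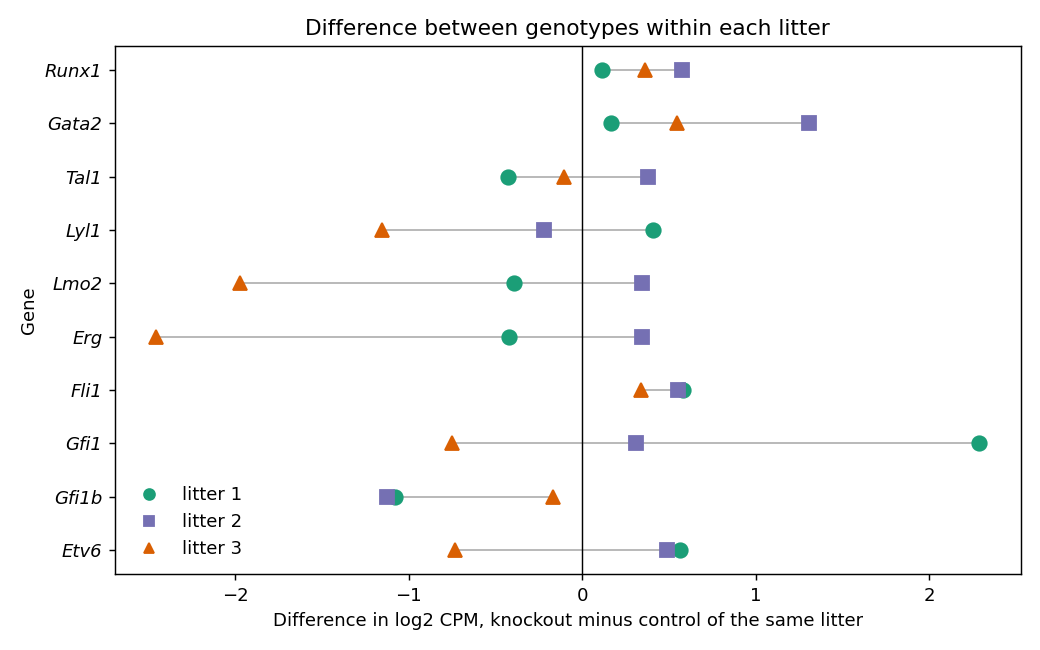
Difference in log2 CPM, knockout minus control, within litter 1 (circles), litter 2 (squares) and litter 3 (triangles) for each of the 10 factors, with a grey line joining the lowest and highest litter. Runx1, Gata2 and Fli1 lie to the right of 0 and Gfi1b to the left of 0 in all 3 litters, and litter 3 reaches -2.45 for Erg and -1.97 for Lmo2.

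The spread between samples was larger among knockouts than among controls for 9 of the 10 members, Tal1 being the exception, where 75.2% of all genes tested had it so. The median SD of log2 CPM over the members was 0.26 in controls and 0.70 in knockouts, and 0.49 and 0.89 over all genes tested. Over the 6401 tested genes within the range of mean CPM of the members it was 0.33 and 0.59. Knockout 2 was the highest sample for 5 of 10 members (18.6% of all genes tested), in the library whose endothelial marker sum was the lowest. Knockout 3 was the lowest sample for 4 of 10, Lyl1, Lmo2, Erg and Etv6 (29.1% of all genes tested). It was under 50% of the lowest control for 2 of 10, Lmo2 and Erg (22.8% of all genes tested, 10.7% of those within the range of mean CPM of the members).

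The 20 other transcription factors of HSCs placed Erg, Lmo2 and Lyl1 among many genes that were low in knockout 3. That sample was the lowest for 15 of the 20 and under 50% of the lowest control for 11 of them, where 29.1% and 22.8% of all genes tested were. Hlf, a marker factor of HSCs, was at 169, 177 and 157 CPM in controls 1 to 3 and at 146, 229.9 and 27.2 CPM in knockouts 1 to 3. Mecom, a zinc finger factor that HSCs need, was at 70.5, 70.2 and 78.7 CPM in controls and 99.6, 147 and 11.6 CPM in knockouts. Both were named after their values had been seen. The HSC marker genes, which share 2 genes with this list (Hlf and Mecom), were lowest in knockout 3 for 10 of 12, and Kit, the stem cell factor receptor, was at 195, 216 and 173 CPM in controls and 198, 204 and 114 CPM in knockouts 1 to 3. The macrophage, granulocyte and erythroid sums given above were the highest in that library. Of the 12 erythroid markers, it was the highest sample for 4 (25.6% of all genes tested). Lower in the knockout in all litters were 6 of these 12 (15.9% of all genes tested). Knockout 3 also had the fewest genes detected of the 6 samples. The parts of a different mix of cells and of fewer genes detected in the low values were not tested. By the rule for naming, Hoxa7, Myb and Zfx had the smallest p of the list. Their log2 fold changes were -1.93, -0.31 and -0.34 (SE 1.49, 0.25 and 0.28, with adjusted p = 0.869, 0.877 and 0.884, edgeR). Hoxa7 was low throughout, at 11.7, 4.71 and 7.44 CPM in controls 1 to 3 and 3.20, 3.03 and 0 CPM in knockouts 1 to 3. Its log2 fold change was -1.34 without knockout 3. None of the 20 had an unadjusted p under 0.05.

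**Figure D4:**
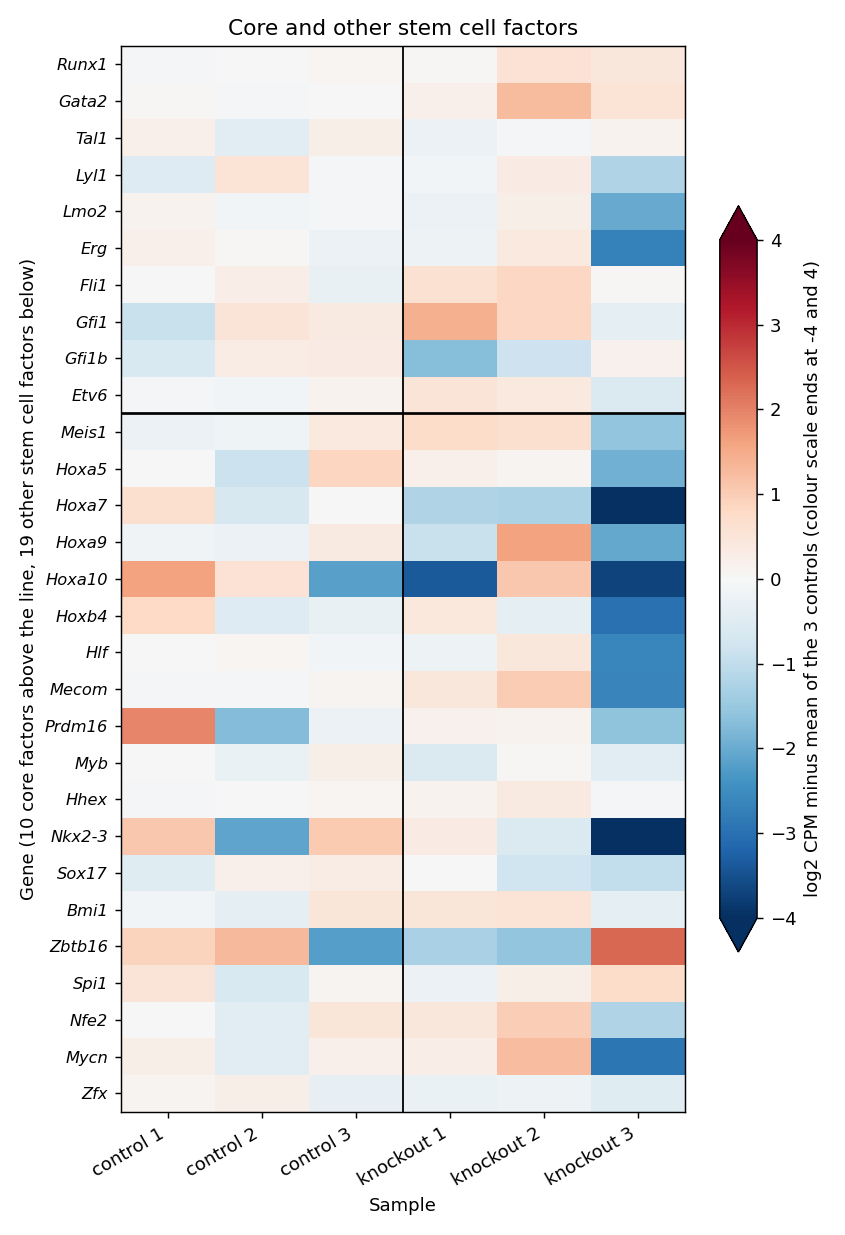
Colour shows log2 CPM minus the mean of the 3 controls for the 10 core factors (above the black line) and 19 of the 20 other stem cell factors (below it) in each sample, blue for lower and red for higher, with colours saturating at -4 and 4. The knockout 3 column is blue for Lyl1, Lmo2 and Erg and for most of the lower block, while Runx1, Gata2, Tal1 and Fli1 stay near or above 0.

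Partners and cofactors of the core were counted as a further list of 17 genes. All 17 were tested and 0 passed. In the knockout 4 were higher and 1 was lower in all litters (12.3% and 15.9% of all genes tested), and the median log2 fold change was 0.11, beside 0.015 over all genes tested. Tcf3, which encodes the E proteins that pair with Tal1 and Lyl1, was at 101.8, 87.5 and 87.1 CPM in controls 1 to 3 and at 48.7, 63.2 and 28.2 CPM in knockouts 1 to 3. Every knockout was below every control, with a log2 fold change of -0.98 (SE 0.32; adjusted p = 0.709, edgeR). Cbfa2t3, a corepressor of the Tal1 complex, was at 68.5, 87.6 and 93.8 CPM in controls and at 71.6, 128 and 181 CPM in knockouts, higher in 3 of 3 litters (log2 fold change 0.61, SE 0.35; adjusted p = 0.814, edgeR; 0.27 without knockout 3). Cbfb, the partner that stabilises Runx1 on DNA, was at 67.5, 43.5 and 46.2 CPM in controls and 77.1, 136 and 45.0 CPM in knockouts (log2 fold change 0.71, SE 0.41; adjusted p = 0.824, edgeR; 0.22 without knockout 2). Ldb1, the adaptor bound by Lmo2 and named outside the rule of smallest p, was at 69.3, 41.9 and 59.1 CPM in controls and 32.5, 48.6 and 72.2 CPM in knockouts, with overlapping groups.

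A list of 22 genes of blood progenitors and megakaryocytes that are widely described as bound by the core factors shared 5 genes with the list of other HSC factors. None passed, 3 of 22 had an unadjusted p under 0.05 (6.51% of all genes tested), and 14 of 22 had a log2 fold change above 0 (50.8% of all genes tested). In the knockout 2 of 22 were higher and 2 were lower in all litters (12.3% and 15.9% of all genes tested). All knockouts lay above all controls for 1 of 22 and below them for 1 (6.39% and 7.74% of all genes tested). Sla, an adaptor that dampens receptor signalling, was at 17.2, 15.7 and 34.1 CPM in controls and 30.8, 62.6 and 74.6 CPM in knockouts 1 to 3 (log2 fold change 1.33, SE 0.46; adjusted p = 0.721, edgeR). Pf4, a platelet chemokine, was at 6.22, 4.09 and 7.19 CPM in controls and 10.5, 16.1 and 22.0 CPM in knockouts, with no overlap (log2 fold change 1.47, SE 0.56; adjusted p = 0.733, edgeR). Cdk6, a kinase that drives exit from quiescence, was at 210, 196 and 219 CPM in controls and 151, 103 and 165 CPM in knockouts, with no overlap on this scale (log2 fold change -0.58, SE 0.23; adjusted p = 0.758, edgeR). With scaling by library size alone its groups overlapped, control 1 at 157 CPM and knockout 1 at 189 CPM, and the log2 fold change was -0.36.

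Genes with the profile most like that of a member were sought among 8512 genes with a mean of at least 5 CPM, for the 2 members of smallest p. Likeness was the Euclidean distance between log2 CPM profiles over the 6 samples, each centred on its mean. Closest to Gata2 were Bcor (distance 0.286), Cnot4 (0.299) and Med21 (0.334). Bcor was at 69.7, 74.4 and 73.1 CPM in controls and 85.3, 145 and 109 CPM in knockouts 1 to 3. Closest to Fli1 were Kat7 (0.236), Tnrc18 (0.293) and Atp6v0a2 (0.326). Kat7, a histone acetyltransferase gene, was at 32.8, 39.0 and 29.2 CPM in controls and 44.6, 53.9 and 35.3 CPM in knockouts.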

How the data were processed

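The deposited values are the authors' raw read counts by gene symbol, with 1 list per sample and with replicates kept separate. Per the submitters' processing notes the build was mm10 and the tools were CASAVA 1.8.4, TopHat2, Picard 1.126, HTSeq 0.6.0, DESeq 3.0 and bedtools 2.17.0, with no role or order given; the annotation and the strand setting are not given in the sources used here. The 5 closing tallies of unassigned reads were left out. No molecular tags are described.

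The comparison used edgeR's quasi-likelihood F test (edgeR 4.0.16, R 4.3.3) on all 6 samples without a litter term, with filterByExpr by group, TMM scaling and Benjamini-Hochberg adjustment over 13646 genes at a threshold of 0.05. The SE was taken as the absolute log2 fold change divided by the root of the F statistic, and log2 CPM has a prior count of 2. Other settings were DESeq2 1.42.0, litter as a block, other scalings and filters, and leaving out each sample. The edgeR step was tested on simulated data first. The labels pair samples by litter; deviations of litter mates from their genotype means correlated at -0.022, -0.075 and 0.0034 in litters 1 to 3. Gene positions are from GENCODE M21 (GRCm38, the assembly of mm10).

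All members were named. Of other factor lists the 3 genes of smallest p were named, and of marker lists the summed level and chosen markers. Genes such as Ldb1, Hlf, Mecom, Ets1, Tal2 and Lmo1 were named outside this rule. The members and all lists were chosen with earlier results of these data known. Of the 20 other HSC factors, 1 is counted but not reported by name here.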

Additional observations from a re-analysis of the deposited data

How the results depend on the processing

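The count of genes past the threshold was 0 in edgeR (888 at an unadjusted p under 0.05). It was 253 with DESeq2, 381 with DESeq2 and a replicate block (added after the data were seen), 1 without a filter on low counts and 1 with at least 10 counts in every sample, and it ranged from 0 to 0 when each sample was left out in turn. With litter as a replicate block in edgeR it was again 0, with 619 genes at an unadjusted p under 0.05. With DESeq2 the block ended the call of Dpy30, from an adjusted p of 0.0436 to 0.0512 (log2 fold change -1.52 and -1.60). The block changed no other call among the members, the genes named for the smallest p of their list and the genes of most similar profile. Other named genes were not compared in this way. No member passed under any of the 12 planned settings or the 1 added. Members with a log2 fold change above 0 numbered 5 of 10 and ranged from 5 to 8 when each sample was left out, with 8 without knockout 3. Tal1 turned from -0.071 to 0.14 with scaling by library size alone. Leaving out each sample, log2 fold changes ranged from -0.26 to 0.043 for Tal1, -0.62 to 0.077 for Lyl1, -0.88 to 0.025 for Lmo2, -0.99 to 0.12 for Erg and -0.022 to 0.47 for Etv6, and the difference in the log2 ratio of Tal1 to Lyl1 from -0.25 to 0.63. Each of these 6 values changed sign under at least 1 such fit. Runx1, Gata2, Fli1, Gfi1 and Gfi1b kept their sign under all settings. Without each sample in turn Gata2 ranged from 0.39 to 0.95 and Fli1 from 0.34 to 0.71, both lowest without knockout 2. The cause was not tested.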

Other observations

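Paralogs of the core factors were followed as a list of 14 genes, of which 12 could be tested and 0 passed in edgeR. Tal2 had 0 counts in every sample and Lmo1 at most 1.45 CPM. Elf4, an ETS gene that promotes cycling of HSCs, was at 127, 101.0 and 109 CPM in controls 1 to 3 and at 136, 124 and 284 CPM in knockouts 1 to 3, higher in 3 of 3 litters (log2 fold change 0.69, SE 0.34; adjusted p = 0.790, edgeR), and its log2 fold change was 0.23 without knockout 3. Runx3 was at 10.6, 21.4 and 16.4 CPM in controls and 11.0, 6.86 and 9.60 CPM in knockouts (log2 fold change -0.82, SE 0.50; edgeR adjusted p = 0.836). Lmo4 was at 18.2, 29.7 and 12.8 CPM in controls and 13.9, 15.8 and 1.71 CPM in knockouts, lower in 3 of 3 litters with TMM scaling and in 2 of 3 with scaling by library size alone (log2 fold change -0.95, SE 0.78; edgeR adjusted p = 0.880). Without knockout 3 its log2 fold change was -0.44, and without control 2 it was -0.56. Ets1, an ETS gene named after its values were seen, was at 37.2, 103 and 55.0 CPM in controls and 104, 38.5 and 144 CPM in knockouts. Knockout 2, in which Erg and Fli1 were at their highest, was the lowest of the knockouts but within the control range.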
